A study of Mus musculus with 6 samples.

Results

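Cells detoxify superoxide and peroxides through a chain of enzymes whose transcripts are described here in sorted mouse photoreceptors. The set holds 35 genes chosen by name, namely the superoxide dismutases, catalase, the glutathione peroxidases, the peroxiredoxins with sulfiredoxin, the thioredoxins and their reductases, the glutaredoxins, the enzymes that make and recycle glutathione, and the NRF2-KEAP1 regulators with their inducible enzymes. All 35 were found among the 49997 gene symbols of each library, and all 35 passed the filter on low counts. RNA was counted in 3 libraries of photoreceptors that received a guide RNA against Nr2e3 (guide libraries) and in 3 that received a control guide (control libraries). Every animal carried Rosa26-Cas9, which expresses SpCas9 in all cells, and received an adeno-associated virus under the retina. The virus, in a 7m8 coat, also held mCherry under a human GRK1 promoter, which is active in photoreceptors. Each library came from 2 retinas of 1 mouse, and about 100000 mCherry-positive cells were sorted 6 months after injection. Injection was at postnatal day 21 per the series text, or at 4 weeks per the treatment protocol. Guide replicate 1 was male, guide replicates 2 and 3 were female, and all 3 control mice were male, so sex and guide cannot be fully told apart.

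Superoxide dismutases turn superoxide into hydrogen peroxide, and catalase, glutathione peroxidases and peroxiredoxins reduce the peroxide to water or alcohols. Peroxiredoxins are recharged by thioredoxin and glutathione peroxidases by glutathione, and both of these draw on NADPH. The transcription factor NRF2 (gene Nfe2l2) is held down by KEAP1 and, when released, induces many genes of this defence. Photoreceptors have a high oxygen use and outer segments rich in polyunsaturated lipids, which is why this defence is studied in retinal degeneration.

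Libraries held 24705561 to 34286248 gene counts, and levels are given as CPM, scaled to a common library size with TMM factors. A gene with 3 counts stands at 0.0801 to 0.131 CPM. Nr2e3 itself had 2090, 1905 and 2242 CPM with the Nr2e3 guide and 1755, 1571 and 1505 CPM with the control guide. Each guide library lay above each control library, with a log2 fold change of 0.37 (SE 0.13) and an adjusted p of 0.716 by edgeR. A count over the whole gene is blind to small insertions and deletions and is no test of editing. The photoreceptor label was met by the rod markers, of which 7 genes summed to 138900 to 146900 CPM with the Nr2e3 guide and 131300 to 165400 CPM with the control guide. Control replicate 3 stood apart. The 7 cone markers summed to 15270, 13190 and 11270 CPM in guide replicates 1 to 3 and to 6829, 7191 and 1328 CPM in control replicates 1 to 3. Gnat2, Pde6h and Pde6c lay higher in each guide library than in each control library, while the other 4 overlapped between the groups with lower guide means. By edgeR the adjusted p was 0.121 for Gnat2, 0.684 for Pde6h and 0.0898 for Pde6c. The 12 microglia markers summed to 36.1, 181 and 120.5 CPM in guide replicates 1 to 3 and to 32.8, 35.8 and 310 CPM in control replicates 1 to 3.

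No antioxidant gene passed the test between guide and control libraries. With edgeR (quasi-likelihood, Benjamini-Hochberg adjustment over 17138 genes), 0 of the 35 were called higher, where 0.315% of all genes were, and 0 were called lower, where 0.0292% were. The smallest adjusted p among the 35 was 0.874, for Gss. DESeq2 and limma-voom also called 0 of them, where they called 1.59% and 1.04% of all genes in either direction. Against such shares a count of 0 among 35 is near the background. At an unadjusted p under 0.05 there was 1 of 35 (2.86%) by edgeR, against 5.69% of all genes. Guide and control libraries did not overlap for 3 of the 35 (8.57%), against 12.1% of all genes. The median log2 fold change, guide over control, was -0.01 over the 35 genes and -0.01 over all genes tested, with 17 of the 35 positive and 18 negative. In these bulk samples, fewer cells of a type and less RNA per cell cannot be told apart.

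The size of difference that the data leave room for varied with expression. The 95% interval of the difference lay within a 2-fold change in either direction for 24 of the 35 genes and within a 1.5-fold change for 8. Of the 26 genes with a control mean of at least 5 CPM, 23 lay within 2-fold, and of the 9 below that level, 1 did. Fold changes ran from -0.61 to 0.32 on the log2 scale among the more abundant genes and from -1.89 to 0.62 among the sparse ones.

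**Figure D1:**
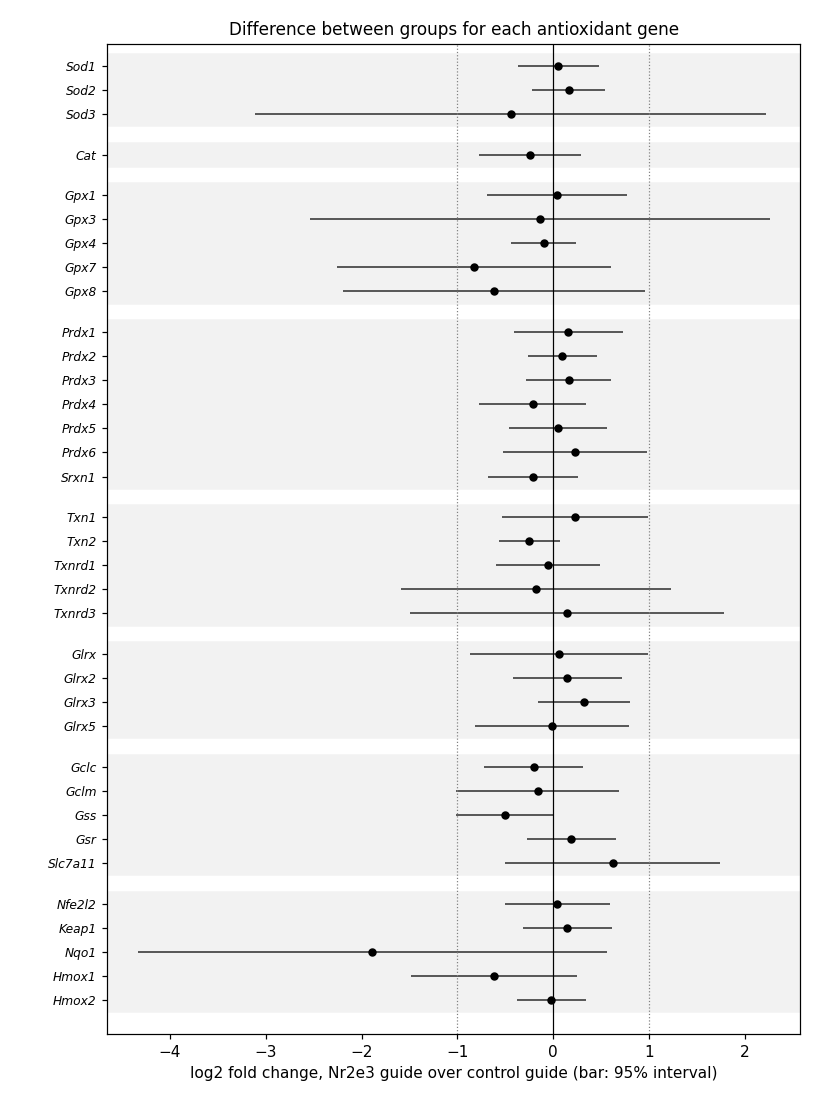
Log2 fold change, Nr2e3 guide over control guide, of each of the 35 genes (points) with its 95% interval (bars), grouped by role. Dotted lines mark a 2-fold change in either direction. The intervals of 24 genes lie between them, and the widest belong to genes with few counts such as Sod3 and Nqo1, and to Gpx3.

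Levels of different genes were compared per kilobase of exon. Gpx4, the selenium-containing peroxidase that reduces lipid peroxides within membranes, led the set at 505 ± 54.0 CPM per kilobase with the Nr2e3 guide and 542 ± 55.0 with the control guide (SD, n = 3 each). Prdx2, a cytosolic peroxiredoxin, followed at 137 ± 16.3 CPM per kilobase with the Nr2e3 guide and 128 ± 15.1 with the control guide, and Prdx3, the mitochondrial peroxiredoxin, at 106 ± 24.3 and 94.6 ± 7.61. The gap between Prdx2 and Prdx3 was larger than the SD of either gene in both groups. That SD covers the spread between libraries. It does not cover errors from exon length, shared sequence or overlapping genes, which differ between the 2 genes. Prdx1, cytosolic as well, and Txn2, the mitochondrial thioredoxin, came next. At the low end were Slc7a11, the cystine importer, Sod3, the extracellular dismutase, Txnrd3, a thioredoxin reductase best known from testis, and Nqo1, a quinone reductase, all under 1 CPM per kilobase. Exon lengths come from GENCODE M21 and count every annotated exon. Which exons were used was not measured, so a gene whose annotated exons are in part unused would be placed too low. Of the 50-base words in Gpx4 transcripts, 34.7% also occur in another gene, most often the pseudogene Gpx4-ps2, so that reads with several alignments may be missing from its count.

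**Figure D2:**
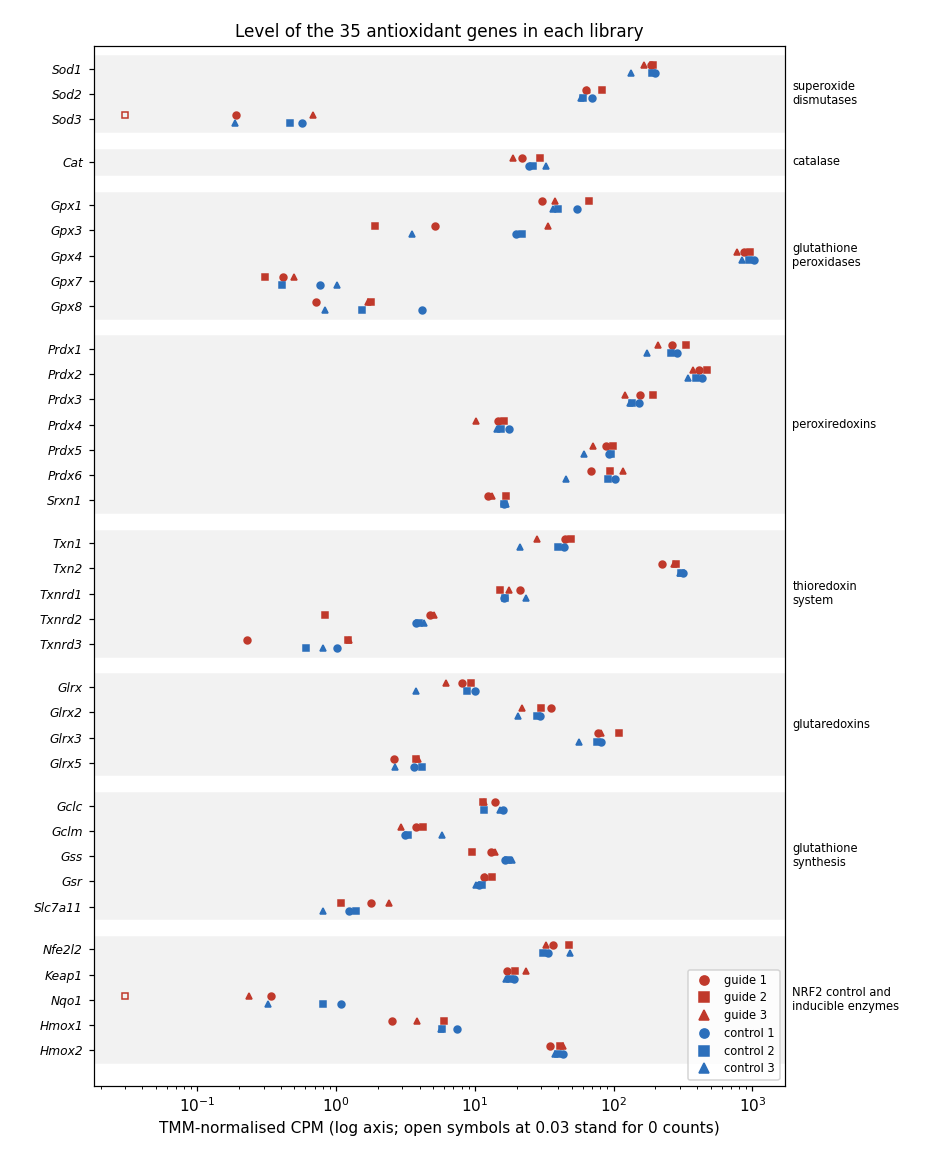
TMM-normalised CPM (log axis) of each gene in each of the 6 libraries, with guide libraries in red above control libraries in blue and genes grouped by role. The highest library is under 2 times the lowest for 22 of 35 genes, while Gpx3 runs from 1.91 to 33.6 CPM.

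Among the dismutases, Sod1, the cytosolic copper-zinc enzyme, had 185, 191 and 164 CPM in guide replicates 1 to 3 and 198, 189 and 133 CPM in control replicates 1 to 3. The groups overlapped, and control replicate 3 was the lowest of the 6 libraries. Its log2 fold change was 0.05 (SE 0.18, 95% interval -0.35 to 0.46). Sod2, the mitochondrial manganese enzyme, was at 70.1 ± 10.8 CPM with the Nr2e3 guide and 62.6 ± 5.82 CPM with the control guide (log2 fold change 0.16, SE 0.16). Sod3 had 5, 0 and 23 counts with the Nr2e3 guide and 18, 16 and 7 counts with the control guide, which is too few to bound a difference.

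Cat, catalase of peroxisomes, had 21.7, 29.7 and 18.8 CPM with the Nr2e3 guide and 24.5, 26.3 and 32.3 CPM with the control guide. The groups overlapped through guide replicate 2, and the log2 fold change was -0.24 (SE 0.22). Gpx4 had 873, 963 and 777 CPM with the Nr2e3 guide and 1026, 941 and 837 CPM with the control guide. These also overlapped, with a log2 fold change of -0.10 (SE 0.14, interval -0.43 to 0.23). Gpx1, the cytosolic glutathione peroxidase, was at 44.7 ± 19.1 CPM with the Nr2e3 guide and 43.4 ± 9.49 CPM with the control guide. Gpx7 and Gpx8, peroxidases of the endoplasmic reticulum, stayed under 5 CPM in each library and had log2 fold changes of -0.82 (SE 0.61) and -0.62 (SE 0.67).

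Gpx3, a secreted glutathione peroxidase (chromosome 11, 54902854 to 54910387), varied more between libraries than any other member with at least 5 CPM, and is described because its values stood out. It had 5.19, 1.91 and 33.6 CPM with the Nr2e3 guide and 19.7, 21.9 and 3.50 CPM with the control guide. Guide replicate 3 and control replicates 1 and 2 were high, and the other libraries low, in both groups. The log2 fold change over all libraries was -0.14 (SE 1.02, adjusted p = 0.997). With both replicate 3 libraries left out it was -2.54 (SE 0.47, adjusted p = 0.132), again not past the threshold. The 8 amacrine cell markers summed to 165, 61.5 and 277 CPM with the Nr2e3 guide and 296, 336 and 132 CPM with the control guide, and in control replicate 3 all 8 lay below both other controls. Guide replicate 3 and control replicates 1 and 2 were the highest for these markers as well. They were also the highest for the bipolar markers, at 194.5, 138 and 210 CPM with the Nr2e3 guide and 269.5, 244 and 151 CPM with the control guide. The summed ganglion cell markers ranked these libraries highest too. So did most Müller glia markers, such as Rlbp1 and Dkk3, but not their sum, in which Clu was the largest part. The part of amacrine, Müller glia or other inner retinal RNA in the Gpx3 values was not tested.

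The 6 peroxiredoxins and Srxn1 had log2 fold changes between -0.21 and 0.23. Prdx2 had 409, 471 and 372.5 CPM with the Nr2e3 guide and 435.5, 394.5 and 343.5 CPM with the control guide, overlapping groups with a log2 fold change of 0.09 (SE 0.15, interval -0.25 to 0.44). Prdx1 was at 268 ± 62.7 CPM with the Nr2e3 guide and 241 ± 59.3 CPM with the control guide, and Prdx3 at 156 ± 35.9 and 139.8 ± 11.2 CPM. Prdx5, found in mitochondria, peroxisomes and cytosol, had a log2 fold change of 0.05 (SE 0.21). Prdx6, which also acts on phospholipids, had one of 0.23 (SE 0.32), and Prdx4, of the endoplasmic reticulum, one of -0.21 (SE 0.24). Srxn1, sulfiredoxin, which repairs overoxidised peroxiredoxins, was at 14.1 ± 2.28 CPM with the Nr2e3 guide and 16.4 ± 0.393 CPM with the control guide. Of the 7 genes, 6 were lower in control replicate 3 than in both other controls, all but Srxn1. Exons of Prdx5 overlap Trmt112 on the opposite strand over 19.1% of their length, and those of Prdx2 overlap Junb and Rnaseh2a over 11.5%, so reads there are not separable without strand.

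In the thioredoxin system, Txn2 (GRCm38.p6 chromosome 15, 77915051 to 77928994) was one of the 3 members whose groups did not overlap. It had 224, 282 and 271 CPM with the Nr2e3 guide and 316, 307 and 299.8 CPM with the control guide. Each guide library lay below each control library, and the log2 fold change of -0.25 (SE 0.13, interval -0.56 to 0.06) had an adjusted p of 0.967 by edgeR. Over the 16 alternative settings the fold change ran from -0.47 to -0.15. These settings refit the same libraries, and in groups without overlap the sign could hardly change, so it adds no support. Txn1, the cytosolic thioredoxin, was at 40.7 ± 11.2 CPM with the Nr2e3 guide and 34.7 ± 12.1 CPM with the control guide, with the lowest level, 20.95 CPM, in control replicate 3. The cytosolic reductase Txnrd1 was at 18 ± 3.08 CPM with the Nr2e3 guide and 18.7 ± 3.95 CPM with the control guide. The mitochondrial reductase Txnrd2 had 126, 19 and 171 counts with the Nr2e3 guide and 119, 137 and 162 counts with the control guide, with guide replicate 2 apart from the rest.

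Glutaredoxins use glutathione to reduce mixed disulfides, and some of them carry iron-sulfur clusters. Glrx3, a cytosolic member of the second kind, had 76.9, 109 and 81.4 CPM with the Nr2e3 guide and 81.6, 75.6 and 56.6 CPM with the control guide. The groups overlapped, and the log2 fold change was 0.32 (SE 0.20). Over the 16 alternative settings it ran from 0.099 to 0.43, without passing the threshold in any. Other members, such as Sod2, Gpx4 and Gsr, also kept their sign in all of these settings, which refit the same libraries. Glrx2 (0.15, SE 0.24), Glrx (0.06, SE 0.39) and Glrx5 (-0.01, SE 0.34) lay closer to 0. All 4 were lower in control replicate 3 than in both other controls.

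Glutathione is made by glutamate-cysteine ligase (catalytic subunit Gclc, modifier subunit Gclm) and glutathione synthetase (Gss), and its oxidised form is reduced by Gsr. Gss (chromosome 2, 155563181 to 155592810) had 13.1, 9.57 and 13.97 CPM with the Nr2e3 guide and 16.4, 17.2 and 18.5 CPM with the control guide. Each guide library lay below each control library. The log2 fold change was -0.51 (SE 0.22, interval -1.01 to -0.01), and Gss was the only one of the 35 genes with an unadjusted p under 0.05, while its adjusted p by edgeR was 0.874. Over the 16 alternative settings it ran from -0.62 to -0.36. Exons of Gss overlap Acss2, Gssos1 and Gssos2 on the opposite strand over 15.4% of their length, and reads there cannot be assigned without strand. Gsr (chromosome 8, 33653238 to 33698162) also had groups without overlap, with 11.6, 13.3 and 11.8 CPM with the Nr2e3 guide and 10.8, 11.2 and 10.2 CPM with the control guide. Each guide library lay above each control library, by 0.19 on the log2 scale (SE 0.20, adjusted p = 0.995).

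Gclc, the rate-limiting subunit, was at 12.3 ± 1.36 CPM with the Nr2e3 guide and 14.2 ± 2.30 CPM with the control guide (log2 fold change -0.20, SE 0.22). Gclm had 3.79, 4.22 and 2.94 CPM with the Nr2e3 guide and 3.14, 3.32 and 5.79 CPM with the control guide, the highest value being that of control replicate 3. Slc7a11, which brings in the cystine for this pathway, was at 1.75 ± 0.648 CPM with the Nr2e3 guide and 1.14 ± 0.303 CPM with the control guide (log2 fold change 0.62, SE 0.48).

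Nfe2l2 had 36.2, 47.5 and 32.5 CPM with the Nr2e3 guide and 33.6, 31.0 and 48.2 CPM with the control guide. Guide replicate 2 and control replicate 3 were the high libraries, so the groups overlapped and the log2 fold change was 0.04 (SE 0.23). The same pair of libraries held the most microglia marker RNA. They were highest as well for the photoreceptor injury genes, at 38.4, 102 and 69.1 CPM with the Nr2e3 guide and 32.6, 37.5 and 323.5 CPM with the control guide. The summed Müller glia markers also ranked them highest, at 1272 and 1114 CPM, with guide replicate 3 close at 1089 CPM. Guide replicate 3 went the other way. It had less Nfe2l2 than guide replicate 1 but more microglia marker RNA, at 120.5 against 36.1 CPM, and more injury gene and Müller glia marker RNA. The part of microglia, injury or Müller glia RNA in the Nfe2l2 values was not tested. Keap1 was at 19.9 ± 3.31 CPM with the Nr2e3 guide and 18 ± 1.17 CPM with the control guide (0.15, SE 0.19).

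Heme oxygenase has a constitutive form, Hmox2, and an inducible one, Hmox1. Hmox2 had 34.95, 41.1 and 43.0 CPM with the Nr2e3 guide and 43.0, 39.8 and 38.0 CPM with the control guide, with overlap and a log2 fold change of -0.02 (SE 0.15). Exons of Cdip1 on the opposite strand cover 40.2% of its exon length. Hmox1 had 2.54, 5.96 and 3.82 CPM with the Nr2e3 guide and 7.36, 5.82 and 5.66 CPM with the control guide, where guide replicate 2 alone overlapped the controls. Its log2 fold change was -0.61 (SE 0.37, adjusted p = 0.995), and -1.31 (SE 0.48, adjusted p = 0.627) with sex as a term, where guide replicate 1 is the sole male guide library. Nqo1 had 9, 0 and 8 counts with the Nr2e3 guide and 34, 28 and 12 counts with the control guide, and -1.89 on the log2 scale (SE 1.04, interval -4.32 to 0.55, adjusted p = 0.977). The 8 pigment epithelium markers summed to 5.07, 1.13 and 2.62 CPM with the Nr2e3 guide and 16.4, 14.2 and 0.747 CPM with the control guide. Dct, Pmel and Ttr made up most of the sums of control replicates 1 and 2. Rgr (0.922 against 0.693 CPM) and Best1 (0.212 against 0.0846 CPM) had higher means with the Nr2e3 guide, and the others lower ones. The pigment epithelium sum was lowest in control replicate 3, while Nqo1 was lowest in guide replicate 2. The summed amacrine, bipolar and horizontal cell markers were also highest in control replicates 1 and 2, and were lowest in guide replicate 2. The part of pigment epithelium or inner retinal RNA in the Nqo1 counts was not tested. Guide replicate 2 had 0 counts of Nqo1, which allows up to 0.131 CPM. It had 4 of the 8 pigment epithelium markers at 0 as well, Rpe65, Dct, Tyr and Lrat. Control replicate 3 also had 4 at 0, Rpe65, Dct, Tyr and Best1. Hmox1 and Nqo1 are described for their size of difference, which was seen first.

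NRF2 binds the antioxidant response element, whose core was searched for as TGACNNNGC on both strands in the 250 bases before each gene's start. It was found in 5 of the 30 members that have a promoter in the RefSeq table (16.7%) and in 10.2% of all 32851 promoters. Sod3, Prdx6, Gclc, Gsr and Hmox1 have no promoter there and were not searched. The 5 windows are shown because they place the letters that NRF2 reads beside genes whose levels are given above. Each is the gene's own strand, 5′ to 3′, in GRCm38.p6, with the match in capitals. In Prdx1, Txnrd1, Gclm and Sod1 the core lies on the other strand, so the capitals are its reverse complement.
Prdx1, chr4:116685441-116685499: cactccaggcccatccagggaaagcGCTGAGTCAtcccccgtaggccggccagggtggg
Txnrd1, chr10:82859089-82859147: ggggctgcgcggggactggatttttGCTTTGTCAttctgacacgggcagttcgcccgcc
Gclm, chr3:122245398-122245456: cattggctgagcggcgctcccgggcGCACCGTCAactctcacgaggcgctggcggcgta
Sod1, chr16:90220681-90220739: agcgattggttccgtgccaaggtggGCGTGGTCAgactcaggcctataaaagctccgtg
Nfe2l2, chr2:75704870-75704913: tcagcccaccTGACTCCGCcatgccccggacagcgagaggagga
The match in Prdx1 starts 133 bases before the gene's start and overlaps a TGANTCA motif, the site of AP-1 factors. Txnrd1 has several starts, and the table's start lies inside its annotated span. The log2 fold changes of these genes were 0.16 for Prdx1, -0.05 for Txnrd1, -0.16 for Gclm, 0.05 for Sod1 and 0.04 for Nfe2l2, and 0 of the 5 had an unadjusted p under 0.05. A match of letters is not a measured binding site, and elements farther away were not searched.

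The members also differed between libraries of 1 group. Control replicate 3 was below both other controls for 25 of the 35 genes (71.4%), against 41.9% of all genes tested, and above both for 8. Those 8 were Cat, Gpx7, Srxn1, Txnrd1, Txnrd2, Gclm, Gss and Nfe2l2. In control replicate 1, 22 of the 35 lay above both other controls (62.9%), against 33.6% of all genes, and in guide replicate 2, 20 lay above both other guide libraries (57.1%), against 33.3%. Summed over the 35 genes, the level was 2743, 3213 and 2594 CPM with the Nr2e3 guide and 3158, 2913 and 2482 CPM with the control guide, which overlap. Both replicate 3 libraries had the lowest sum of their group. In control replicate 3, all 12 microglia markers and all 7 photoreceptor injury genes lay above both other controls, and all 7 cone markers below them. Of all genes tested, 42.4% lay above both other controls in this library and 41.9% below. The injury gene Lif was too sparse to be tested, with 3 counts there, 0 in the other controls and 23 in guide replicate 1. The part of microglia, injury and cone RNA in the levels of the antioxidant genes was not tested.

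**Figure D3:**
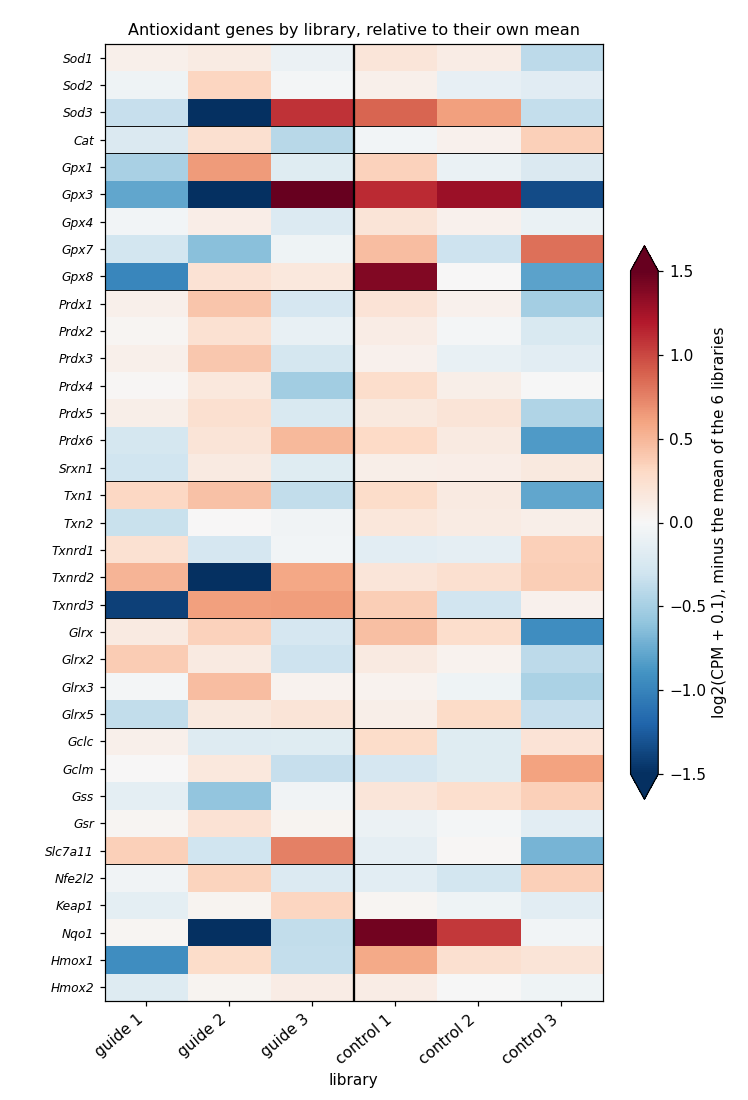
Log2(CPM + 0.1) of each gene in each library, minus the gene's mean over the 6 libraries (colour, cut at 1.5 either way), with guide libraries left of control libraries. Control replicate 3 is below the other controls in 25 of 35 genes, and Gpx3 is high in guide replicate 3 and control replicates 1 and 2.

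**Figure D4:**
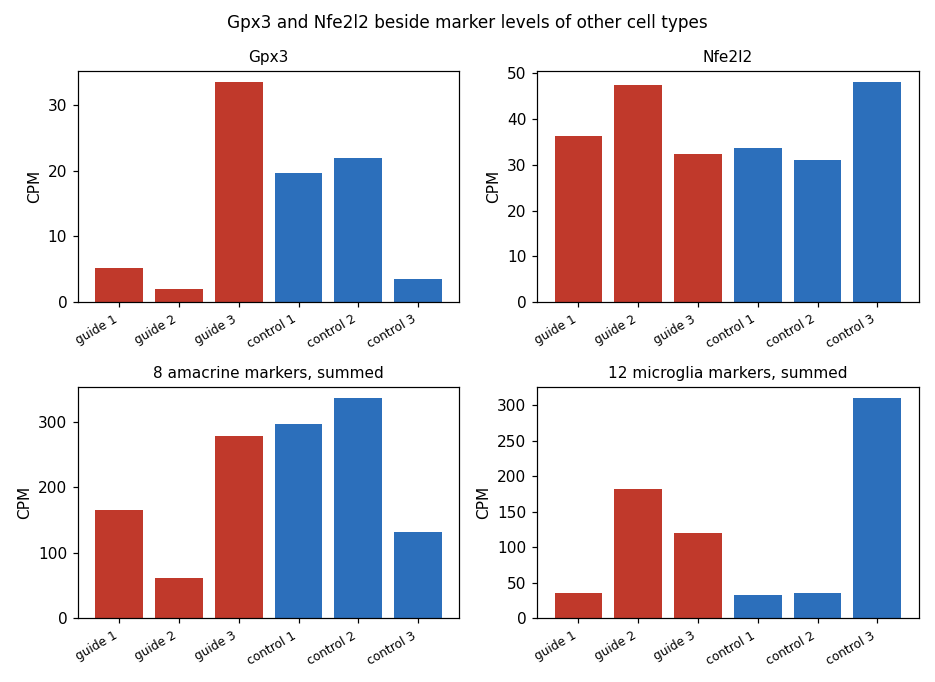
CPM per library of Gpx3 above the summed CPM of 8 amacrine markers, and of Nfe2l2 above the summed CPM of 12 microglia markers, with guide libraries in red and control libraries in blue. Guide replicate 3 and control replicates 1 and 2 are highest for Gpx3 and for the amacrine markers, and guide replicate 2 and control replicate 3 for Nfe2l2 and the microglia markers. Bipolar and ganglion cell marker sums, not drawn, are highest in the same libraries as Gpx3. Sums of photoreceptor injury genes and Müller glia markers, not drawn, are highest in the same libraries as Nfe2l2.

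Beyond the 35 genes, 132 others of the same pathways were examined in 8 lists, of which 109 were tested. By edgeR 0 passed in either direction, against 0.315% of all genes higher and 0.0292% lower. DESeq2 called 0 of the 107 to which it gave an adjusted p, against 1.59% of all genes, and limma-voom 0 of 109, against 1.04%. At an unadjusted p under 0.05 there were 5 (4.59%), against 5.69% of all genes. The median log2 fold change was -0.02.

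Of 18 glutathione transferases tested, which attach glutathione to electrophiles, 3 had an unadjusted p under 0.05 (16.7%), against 5.69% of all genes. Of these 3, 2 were lower and 1 higher with the Nr2e3 guide, and none passed after adjustment. Guide and control libraries did not overlap for 3 of the 18 (16.7%), against 12.1% of all genes. Gstm5 was at 19.6 ± 4.38 CPM with the Nr2e3 guide and 33.4 ± 11.8 CPM with the control guide (log2 fold change -0.77, SE 0.29, adjusted p = 0.771). Gstt2 was at 4.57 ± 0.801 CPM with the Nr2e3 guide and 8.18 ± 2.47 CPM with the control guide (-0.84, SE 0.32, adjusted p = 0.771). For both, each guide library lay below each control library and control replicate 3 was the highest. Gstz1, which also breaks down tyrosine products, was at 49.2 ± 2.57 CPM with the Nr2e3 guide and 39.3 ± 2.32 CPM with the control guide, each guide library above each control library (0.32, SE 0.14, adjusted p = 0.870). Gstm5 belongs to a multigene family of near copies, and exon overlaps were looked up for the 35 genes alone. Of 11 genes of glutathione turnover and transport, the nearest to the threshold was Glo1, glyoxalase, which uses glutathione to clear methylglyoxal. It had 880, 1087 and 752 CPM with the Nr2e3 guide and 534, 520 and 794 CPM with the control guide, so control replicate 3 overlapped the guide libraries (log2 fold change 0.56, SE 0.22, adjusted p = 0.791). Slc3a2, the partner chain of Slc7a11, stood at 0.30 on that scale (SE 0.14, adjusted p = 0.926).

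Of 14 NADPH-supplying enzymes, 0 had an unadjusted p under 0.05. Tkt, transketolase of the pentose phosphate pathway, was at 92.8 ± 33.2 CPM with the Nr2e3 guide and 153 ± 50 CPM with the control guide (-0.72, SE 0.33), and Me2, a mitochondrial malic enzyme, at 51.3 ± 2.97 and 37.4 ± 10.1 CPM (0.46, SE 0.22). Of 16 NRF2 partners and targets, 0 had an unadjusted p under 0.05, with Nfe2l1, a relative of NRF2, at -0.45 (SE 0.26) and Mafk, a small Maf partner, at -1.10 (SE 0.63). Of 18 thioredoxin-fold and repair genes the count was also 0, with Nxn, nucleoredoxin, at -0.65 (SE 0.39) and Nxnl2, a thioredoxin-like trophic factor of photoreceptors, at 0.37 (SE 0.22). It was 0 again for 17 genes that code for selenoproteins or for factors of their synthesis, with the endoplasmic reticulum proteins Selenom at -0.45 (SE 0.22) and Selenos at 0.29 (SE 0.15).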

How the data were processed

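Each library has 1 deposited table of raw counts by gene symbol. The submitters' processing notes name the build GRCm38 (mm10) and the tools HTSeq 0.12.4, STAR 2.7.3a, DESeq2 1.42.0 and cutadapt. Which annotation and strand setting HTSeq used is not given in the sources used here. Per the labels' protocols, cDNA came from the SMARTer Ultra Low kit, a chemistry without strand information. Entries naming no gene (5 per table) took 21.6 to 23.7% of counts and were dropped. The members and lists were chosen with earlier results of these data known.

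The test between guide and control libraries used edgeR 4.0.16 under R 4.3.3 on the counts as deposited, with TMM factors, filterByExpr (min.count 10, total 15), a quasi-likelihood fit and test (glmQLFit, glmQLFTest) on group alone, and Benjamini-Hochberg adjustment over 17138 genes, called at 0.05. The SE was taken from the fold change and the F statistic, and 95% intervals use the test's 5.52 to 7.52 degrees of freedom. The code was tested on simulated data. Floors given for low counts cover counting error only, since reads carry no molecular identifiers. The 95% intervals of fold changes also include the spread between libraries. Chi-square comparisons found no 2 libraries of a group alike enough to be 1 library. Alternatives used limma 3.58.1 and DESeq2 1.42.0, other size factors and filters, the replicate number, sex, males only and fewer libraries. Values in each library are given for members with an unadjusted p under 0.05, groups without overlap, or the highest level of their role, and each list is shown by its 2 genes of smallest p, of which 1 is not reported here. Others were chosen after their values were seen. Coordinates and promoters are RefSeq's (GRCm38.p6), and exon lengths and overlaps GENCODE M21's.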

Additional observations from a re-analysis of the deposited data

How the results depend on the processing

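None of the 35 antioxidant genes and none of the 109 to 130 other pathway genes passed the threshold in the first fit or any of the 16 alternatives (75 pathway genes and 26 members were tested with a mean of at least 5 CPM). The smallest adjusted p of a member was 0.132, for Gpx3 with both replicate 3 libraries left out. No member had opposite signs beyond its SE in the first fit and in an alternative, over 551 values. The median log2 fold change of the members ran from -0.11 among males to 0.10 without control replicate 1. Plain library totals put the median of all genes at -0.09 and that of the members at -0.08.

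Counts over all genes did depend on the settings. They were 54 higher and 5 lower in the first fit, 201 and 70 with DESeq2, 160 and 19 with limma-voom, 130 and 25 without a count filter, 39 and 3 with plain library totals, 6 and 0 with sex as a term and 0 and 0 among males, where 1752 genes had an unadjusted p under 0.05. Leaving out 1 library gave 14 to 80 higher and 0 to 9 lower, the largest counts without control replicate 3. Same-numbered libraries deviated from their group means with correlations of 0.167, -0.124 and 0.143, and differently numbered ones with -0.208 to 0.18. From 3 libraries per group, such correlations cannot decide whether the numbers pair the samples. With the replicate block, 31 genes were higher and 1 lower, and 0 members passed.

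Depth limits the sparse genes most. Sod3, Nqo1, Gpx7 and Txnrd3 each had fewer than 50 counts in every library, and their intervals reach beyond a 2-fold change.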

Other observations

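Genes at the edge of the antioxidant pathways did not pass the test. Of 9 genes of lipid peroxidation, iron uptake and metal binding, 1 had an unadjusted p under 0.05 (11.1%), against 5.69% of all genes. It was Aifm2, which recycles coenzyme Q and limits lipid peroxidation independently of Gpx4, at 9.84, 10.4 and 15.9 CPM with the Nr2e3 guide and 17.4, 19.5 and 23.1 CPM with the control guide. Each guide library lay below each control library, but the log2 fold change of -0.73 (SE 0.25) had an adjusted p of 0.682 by edgeR. Ncoa4, the receptor for the breakdown of ferritin, was at 21.9 ± 1.84 CPM with the Nr2e3 guide and 18.3 ± 1.23 CPM with the control guide (0.26, SE 0.17).

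NADPH oxidases make superoxide, in phagocytes above all. Of 12 such genes 6 were tested, and 0 had an unadjusted p under 0.05. Cybb, of the phagocyte enzyme, was at 1.62 ± 0.416 CPM with the Nr2e3 guide and 2.15 ± 1.81 CPM with the control guide. Selenop, a secreted selenium carrier chosen after its values were seen, had 7.84, 15.7 and 14.2 CPM with the Nr2e3 guide and 7.11, 5.30 and 99.9 CPM with the control guide, so that control replicate 3 alone was high. The sums of microglia markers, leukocyte markers and photoreceptor injury genes were highest in that library as well. The part of each in this value was not tested.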
